A study of Mus musculus with 26 samples.

Results

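Receptor tyrosine kinases are membrane proteins through which growth factors reach the cells of the oligodendrocyte lineage. Described here are the mRNAs of 10 of them, selected by symbol: the fibroblast growth factor (FGF) receptors Fgfr1, Fgfr2 and Fgfr3, the insulin-family receptors Igf1r and Insr, the ErbB receptors Egfr, Erbb2 and Erbb3, the neurotrophin receptor Ntrk2 and the collagen receptor Ddr1. They are 10 of the 10104 coding transcripts listed for either cell type, 1 transcript per gene. The table of oligodendrocyte progenitor cells (OPCs) held 9 of them and had no row for Erbb3, the table of oligodendrocytes (OLs) held 9 and had no row for Erbb2, and 8 were in both. Transcripts under 1 FPKM at 0 h were left out by the authors, so a missing row gives no level and no fold.

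The samples were mouse OPCs of strain 129S/SvEv, derived from epiblast stem cells, and OLs differentiated from such OPCs, with 3 and 2 replicates. The OL replicates correspond to a pair of the OPC replicates, but the study does not say to which, so the groups are not fully separate in origin. OPC medium held the growth factors bFGF and PDGFA at 20 ng/mL each. The OPCs meant for OLs were first passaged 2 times in this medium with bFGF left out. OL medium held noggin and IGF-1 at 100 ng/mL each, cyclic AMP, the neurotrophin NT3 at 10 ng/mL and the thyroid hormone T3 at 40 ng/mL. OLs had differentiated for 40 h before labelling, and the study states that such cultures keep a share of undifferentiated OPCs. For 24 h the medium held 5-ethynyluridine, which enters newly made RNA and lets it be pulled down, and labelled RNA was then sequenced at 0, 1, 2, 4 and 6 h of chase with plain uridine. Each library came from 1 plate. The media differ in receptor ligands, so medium and cell type cannot be told apart, and p-values measure only the spread between these samples, which the study calls biological replicates.

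A receptor of this kind is turned on when its ligand brings receptor chains together, after which the kinases phosphorylate each other and adaptor proteins start RAS-MAPK and PI3K-AKT signalling. In this lineage FGF2 and PDGF are known to keep OPCs dividing, IGF-1 to favour survival and myelin formation, and neuregulins to act through ErbB pairs. How much receptor mRNA a cell holds depends both on how fast it is made and on how fast it decays, and the chase measures the second.

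The cell types were checked against marker genes at 0 h. Mbp, a myelin protein mRNA, was listed at 3.99, 1.19 and 2.28 FPKM in OPC replicates 1, 2 and 3, and OL replicates 1 and 2 held 3213 and 1295 FPKM, a unit that divides a transcript's fragments by its length and by the reads of its library. All 9 OPC markers were listed in both cell types, with summed levels of 1567 to 1729 FPKM in OPCs and 1348 to 1546 FPKM in OLs. Olig1 was the most abundant of them in every replicate, and it was lower in OLs, as was Olig2 (-0.88 and -0.67 log2 units, adjusted p = 0.0190 and 0.0436, limma). Against their use as progenitor markers, 4 of the 9 passed the test as higher in OLs: Gpr17 (299 and 323 FPKM, against 5.00 to 6.61 FPKM in OPCs), Sox10 (89.0 and 111 FPKM, against 4.06 to 25.4), Pdgfra (43.9 and 66.9 FPKM, against 11.5 to 26.5) and Lhfpl3 (27.6 and 35.2 FPKM, against 12.1 to 20.4). The remaining 3 did not pass, among them Cacng4 (23.5 and 27.3 FPKM, against 12.2 to 19.7, adjusted p = 0.122). Astrocyte markers summed to 429 to 512 FPKM in OPCs (5 of 8 listed) and to 675 to 829 FPKM in OLs (7 of 8), with Gfap, their defining gene, at 6.86 and 8.12 FPKM in OLs and Aqp4 in neither table. Of these markers S100b (4.36 log2 units, adjusted p = 0.000121, limma), which oligodendroglia are known to express too, and Slc1a2 (1.60, adjusted p = 0.00401) were higher in OLs. Slc1a3 (-0.72, adjusted p = 0.0756), Aldoc (-0.07, adjusted p = 0.837) and Gja1 (1.13, adjusted p = 0.149) did not pass. Gja1 was at 40.1 FPKM in OL replicate 1 and at 188 FPKM in OL replicate 2, against 35.8 to 42.0 FPKM in OPCs. Cycling markers summed to 430 to 557 FPKM in OPCs and to 68.7 to 152 FPKM in OLs, neuron markers to 83.3 to 189 FPKM and 200 to 215 FPKM, and none of 6 microglia and endothelial markers was listed. The part of these other cells and of cycling in the receptor values was not tested, and in such bulk samples fewer cells of a type and less RNA per cell cannot be told apart. At 6 h the median transcript kept 11.0% to 17.7% of its 0 h level in OPCs, and in OLs 31.5% and 36.6%. OPC replicate 2 stood apart at 4 h, with a median of 20.4% left against 39.0% and 37.0% in the other OPC replicates. At 2 h OPC replicates 1, 2 and 3 had spread from each other, with 54.7%, 83.3% and 72.0%.

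In GRCm38 the FGF receptor transcripts lie at chr8:25518759-25575718 (Fgfr1, forward strand), chr7:130163709-130266191 (Fgfr2, reverse) and chr5:33721791-33737063 (Fgfr3, forward), each with 18 exons. Igf1r lies at chr7:67952827-68233668 (forward) and Insr at chr8:3150922-3279617 (reverse). The ErbB transcripts lie at chr11:16752211-16918158 (Egfr, forward), chr11:98412470-98437716 (Erbb2, forward) and chr10:128567523-128589652 (Erbb3, reverse). Ntrk2 lies at chr13:58807697-59133970 (forward) and Ddr1 at chr17:35681570-35704139 (reverse).

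The transcripts also differ in their 3′ untranslated regions (3′ UTRs), which lie after the stop codon and carry many of the elements known to set mRNA lifetime. In the GENCODE M21 annotation these ran from 250 bases in Fgfr2 and 808 in Ddr1, over 1503 in Fgfr3 and 1797 in Fgfr1, to 5617 in Ntrk2, 6303 in Egfr and 7267 in Igf1r, against a median of 1114 bases over 9978 listed transcripts. The pentamer ATTTA is the core of AU-rich elements, which are known to shorten the life of many growth factor and cytokine mRNAs. It was searched on the transcript's strand, with overlapping matches counted, and was present in 69.9% of all 3′ UTRs. Fgfr1 held 3 matches, where the median of 1636 3′ UTRs of like length (0.8 to 1.25 times) was 3, and Fgfr3 held 5, where the median of 1662 was 2. Igf1r (13, median 13), Insr (7, median 8), Egfr (12, median 11) and Fgfr2 (1, median 0) lay near those of their length. Ntrk2 held 23, where the median of 405 was 10, and it also held 9 matches to the longer TTATTTATT, which contains ATTTA and was found in 22.0% of those 405. Erbb3 held 4 matches and 1 of the longer motif, which was found in 9.21% of 1640 3′ UTRs of like length. Ddr1 and Erbb2 held none, where 68.0% and 75.5% of 3′ UTRs of their length held at least 1. A match is a description of letters and not a measured site. The A- and T-richest window of 29 bases around a match is shown for 4 members. Fgfr1 and Fgfr3 were chosen since they differed between cell types in the chase on either scale tested. Ntrk2 was chosen since its fall passed in neither cell type on the spike-in scale, and Erbb3 since it fell in OLs. Capitals mark the central ATTTA, and the sequence runs 5′ to 3′ on the transcript's strand:
Fgfr1 3′ UTR, GRCm38 chr8:25574538-25574566, forward strand: tcttgagtatatATTTAcatgtcttttta
Fgfr3 3′ UTR, GRCm38 chr5:33736738-33736766, forward strand: tatctatctataATTTAttgagtttttac
Erbb3 3′ UTR, GRCm38 chr10:128568531-128568559, reverse strand: tctatttttctaATTTAatggatttgtta
Ntrk2 3′ UTR, GRCm38 chr13:59132966-59132994, forward strand: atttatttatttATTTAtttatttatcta
The Ntrk2 window is a run of overlapping copies of the motif.

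The study asked whether codons for phenylalanine and lysine bear on decay, so the members' use of them is given as well. UUU made up 25.0% of the phenylalanine codons of Igf1r, 30.3% in Ddr1, 35.3% in Fgfr1, 41.7% in Fgfr3 and 47.6% in Fgfr2, with a median of 44.4% over listed transcripts. AAA made up 13.5% of the lysine codons of Fgfr3, which placed it at the 8.05th percentile of transcripts, 27.3% in Ddr1, 28.6% in Fgfr1 and 49.2% in Egfr, with a median of 37.5%. AAA use was below that median in 9 of the 10 members, with Egfr the exception.

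At the start of the chase, Fgfr2 was the member that differed most between the cell types, and it was higher in OLs. Labelled Fgfr2 RNA was at 3.80, 3.69 and 3.93 FPKM in OPC replicates 1, 2 and 3, against 26.7 and 18.7 FPKM in OL replicates 1 and 2. Both OLs lay far above all OPCs, and the receptor moved from the lowest level among the 9 members in OPCs to the fourth of 9 in OLs. On the log2(FPKM + 1) scale used for all tests of level the difference was 2.28 ± 0.23 (standard error), a fold of 4.86, with a Benjamini-Hochberg adjusted p = 0.000421 in limma. This was the 1 call among the 8 members in both tables, where 29.6% of all 8177 shared transcripts passed the same test, 13.8% higher and 15.8% lower in OLs. The median difference was -0.13 over the 8 members and -0.01 over all transcripts.

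**Figure D1:**
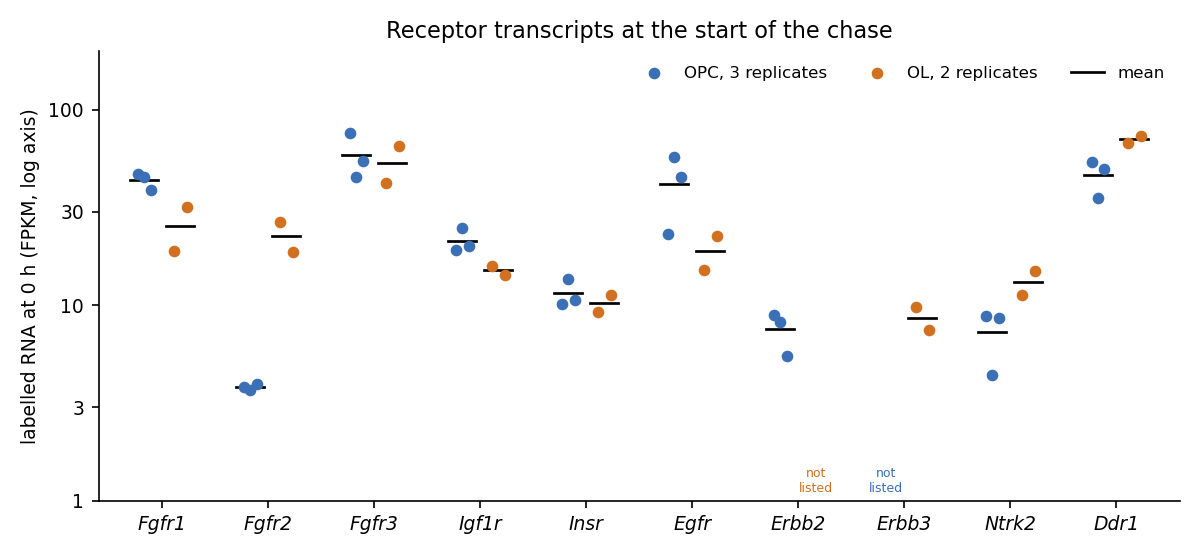
Labelled RNA of each receptor at 0 h of chase, in FPKM on a log axis, with 1 point per replicate (3 OPC, 2 OL) and a bar for the mean. Fgfr2 sits near 4 FPKM in OPCs and at 18.7 and 26.7 FPKM in OLs, while the other shared members differ less.

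The other FGF receptors were among the most abundant members. Fgfr3, which in the brain is known from progenitors and astrocytes, was at 75.7, 45.2 and 54.7 FPKM in OPCs and at 42.2 and 64.9 FPKM in OLs, so the groups overlapped. Its difference was -0.13 ± 0.30 (adjusted p = 0.774, limma), and its sign turned without OL replicate 1 (0.18) and without OPC replicate 1 (0.07). Fgfr1, a receptor for the bFGF of the OPC medium, was at 46.6, 45.4 and 38.9 FPKM in OPCs and at 18.9 and 31.9 FPKM in OLs. Here both OLs lay below all OPCs, with a difference of -0.80 ± 0.27 that missed the threshold (adjusted p = 0.0559, limma). It moved with the OL replicates, to -1.16 without OL replicate 2, which passed (adjusted p = 0.0426), and to -0.44 without OL replicate 1 (adjusted p = 0.333).

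Of the insulin family, Igf1r, the receptor for the IGF-1 of the OL medium, was at 19.0, 24.8 and 20.1 FPKM in OPCs and at 15.9 and 14.3 FPKM in OLs. Both OLs were below the OPCs, by -0.46 ± 0.22 on the log2 scale, which did not pass (adjusted p = 0.148, limma). Insr, the insulin receptor, overlapped between cell types, with 10.1 to 13.7 FPKM in OPCs and 9.27 and 11.3 FPKM in OLs (difference -0.14 ± 0.23, adjusted p = 0.672, limma).

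Among the ErbB receptors, Egfr, which binds EGF, TGF-alpha and HB-EGF, spread widely in OPCs, with 23.1, 57.1 and 45.4 FPKM against 15.2 and 22.7 FPKM in OLs. The lowest OPC value lay just above the higher OL value. The difference of -1.04 ± 0.38 missed the threshold (adjusted p = 0.0741, limma), and without OPC replicate 1, the low library, it was -1.41 and passed (adjusted p = 0.00452), while without OL replicate 1 it was -0.77 (adjusted p = 0.353) and without OPC replicate 2 it was also -0.77 (adjusted p = 0.143). Erbb2, a partner chain with no known ligand of its own, was listed in OPCs alone, at 8.89, 8.21 and 5.49 FPKM. Erbb3, the neuregulin receptor that signals with such a partner, was listed in OLs alone, at 9.79 and 7.46 FPKM. Neither could be compared between the cell types.

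Ntrk2, the BDNF receptor TrkB, was at 8.78, 4.39 and 8.57 FPKM in OPCs and at 11.3 and 15 FPKM in OLs. Ddr1, a receptor for collagen, was at 53.8, 35.2 and 49.7 FPKM in OPCs and at 67.1 and 73.7 FPKM in OLs. For both genes the OLs lay above all OPCs, and neither difference passed (Ntrk2 0.82 ± 0.31, adjusted p = 0.0823; Ddr1 0.62 ± 0.25, adjusted p = 0.0971, limma). Without OPC replicate 1 the Ntrk2 difference was 0.96 and passed (adjusted p = 0.0416), and without OPC replicate 2, its lowest library, it was 0.54 (adjusted p = 0.131). The listed Ntrk2 transcript is the 821-codon form with the kinase. Kinase-less TrkB forms are known, and reads of exons shared with them could not be assigned separately here.

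Ordered by mean level per length (FPKM ± SD, n = 3), the OPC members ran Fgfr3 (58.5 ± 15.6), Ddr1 (46.2 ± 9.77), Fgfr1 (43.6 ± 4.13), Egfr (41.9 ± 17.2), Igf1r (21.3 ± 3.08), Insr (11.5 ± 1.90), Erbb2 (7.53 ± 1.80), Ntrk2 (7.25 ± 2.47) and Fgfr2 (3.81 ± 0.119). Neighbours overlapped in their replicate ranges except Igf1r with Insr, Insr with Erbb2 and Ntrk2 with Fgfr2. In OLs (FPKM ± SD, n = 2) the order was Ddr1 (70.4 ± 4.62), Fgfr3 (53.5 ± 16.1), Fgfr1 (25.4 ± 9.22), Fgfr2 (22.7 ± 5.64), Egfr (18.9 ± 5.28), Igf1r (15.1 ± 1.14), Ntrk2 (13.1 ± 2.61), Insr (10.3 ± 1.45) and Erbb3 (8.63 ± 1.65). There Ddr1 stood apart from Fgfr3 and Fgfr3 from Fgfr1, and all later neighbours overlapped.

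During the chase all receptors listed in OPCs except Ntrk2 fell there, and in OLs several members kept most of their RNA. At 6 h, Fgfr1 was left at 9.88%, 7.19% and 12.9% of its own 0 h level in OPC replicates 1, 2 and 3, against 86.0% and 84.4% in OL replicates 1 and 2. Fgfr3 was left at 3.67%, 2.39% and 2.59% in OPCs and at 49.4% and 47.3% in OLs. For both genes the replicates of a cell type lay close together and the cell types lay far apart. Most of the separation of Fgfr3 arose between 2 h and 4 h, when it went from 54.3% to 72.2% down to 6.16% to 13.9% in OPCs, while the OLs held 80.2% and 113% at 2 h and 79.3% and 114% at 4 h.

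**Figure D2:**
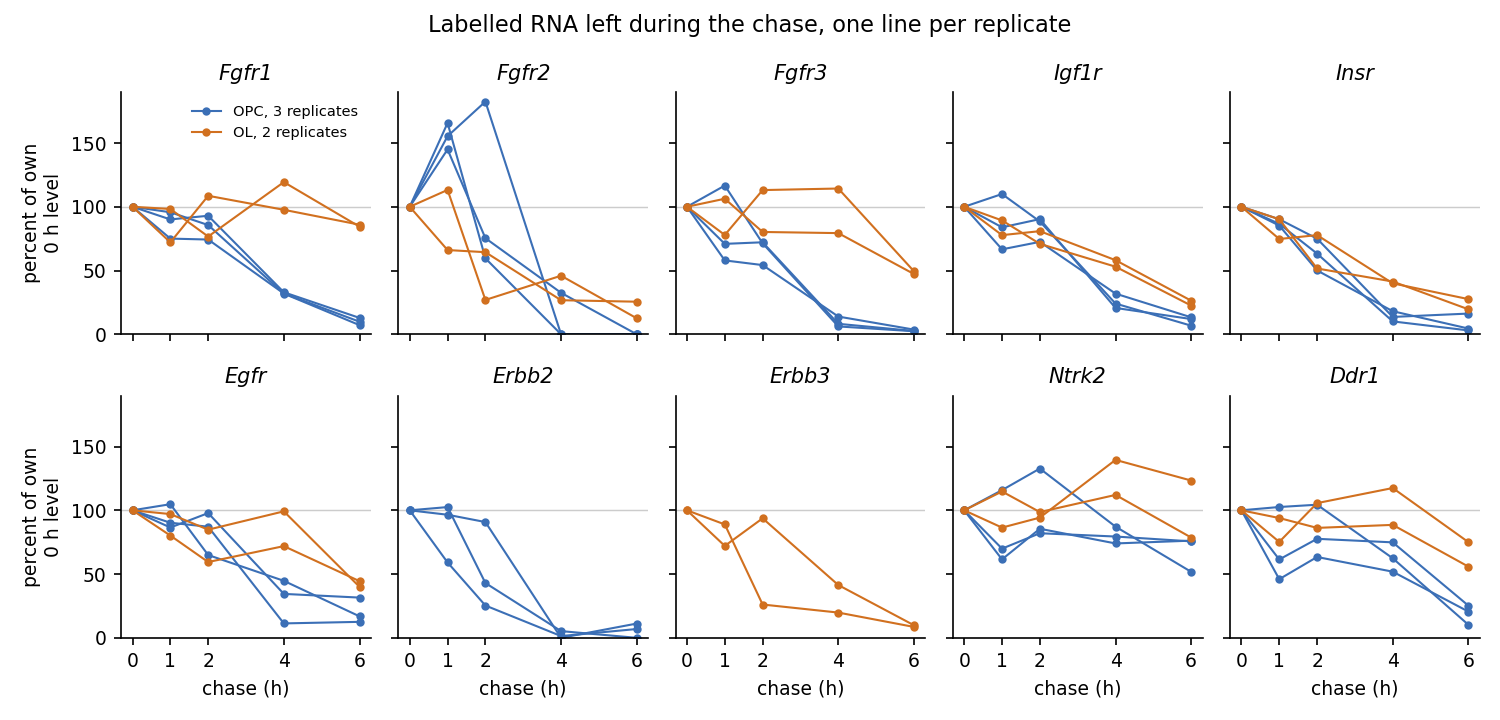
Labelled RNA of each receptor as a percent of its own 0 h level (vertical axis) against hours of chase, with 1 line per replicate. Fgfr1 and Fgfr3 end at 7.19% to 12.9% and 2.39% to 3.67% in OPCs and at 84.4% to 86.0% and 47.3% to 49.4% in OLs, whereas Ntrk2 stays above 50% in every library.

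Ddr1 was left at 20.6%, 10.2% and 25.2% in OPCs and at 75.0% and 55.8% in OLs at 6 h. Egfr was left at 16.9%, 12.5% and 31.6% in OPCs and at 40.0% and 44.4% in OLs. In both, the OLs kept more than any OPC replicate. The insulin-family receptors did so too: Igf1r was left at 13.3%, 6.76% and 12% against 26.4% and 22.5%, and Insr at 4.50%, 3.04% and 16.2% against 27.6% and 19.6%. Fgfr2 was listed at 0 at 6 h in all 3 OPC replicates, from a start of 3.69 to 3.93 FPKM, and at 25.6% and 12.5% in OLs. Of all transcripts 15.7%, 21.6% and 16.4% were listed at 0 at 6 h in OPC replicates 1, 2 and 3. In OL replicates 1 and 2 this share was 4.08% and 0.790%. At 1 h Fgfr2 stood at 145% to 166% of its 0 h level in OPCs, where it was low throughout. Ntrk2 was left at 75.6%, 51.7% and 76.2% in OPCs and at 123% and 78.6% in OLs. Erbb2 was left at 6.91%, 0% and 11.2% in OPCs, and Erbb3 at 9.87% and 8.55% in OLs. In all 8 shared members both OLs kept more at 6 h than all OPCs, which was also true of 48.9% of the 8177 shared transcripts.

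The fall was tested as a slope of log2(FPKM + 1) over the 5 time points, in log2 units per h. In OPCs 8 of the 9 members fell, where 85.7% of 8530 transcripts passed, 81.4% falling and 4.31% rising. On this scale, which flattens low transcripts, Fgfr3 had the steepest slope, -0.81 ± 0.06 (adjusted p = 9.21e-09, limma), followed by Fgfr1 at -0.53 ± 0.05, Insr at -0.52 ± 0.05, Erbb2 at -0.51 ± 0.06, Igf1r at -0.50 ± 0.05, Fgfr2 at -0.48 ± 0.07, Egfr at -0.43 ± 0.07 and Ddr1 at -0.34 ± 0.06. The order depended on the pseudocount: with 0.1 in place of 1, Fgfr2 was at -1.06, Fgfr3 at -0.91, Erbb2 at -0.89, Insr at -0.70, and Igf1r and Fgfr1 both at -0.57. Ntrk2, at -0.06 ± 0.05, did not pass (adjusted p = 0.224), and the call of Ddr1 was lost without the 6 h libraries (-0.13, adjusted p = 0.0998). The median slope was -0.50 over the members and -0.38 over all transcripts.

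In OLs 6 of the 9 members fell, where 65.5% of 9751 transcripts passed, 64.7% falling and 0.779% rising. Erbb3 was the steepest, at -0.40 ± 0.07 (adjusted p = 0.000175, limma), followed by Fgfr2 at -0.36 ± 0.07, Insr at -0.29 ± 0.04, Igf1r at -0.28 ± 0.05, Egfr at -0.16 ± 0.05 and Fgfr3 at -0.14 ± 0.06 (adjusted p = 0.0454). Fgfr1 (-0.01 ± 0.06), Ddr1 (-0.07 ± 0.05) and Ntrk2 (0.02 ± 0.05) did not pass, with adjusted p = 0.934, 0.217 and 0.784 in limma. The call of Fgfr3 was lost without OL replicate 2 (-0.11, adjusted p = 0.249), and that of Egfr without OL replicate 1 (-0.15, adjusted p = 0.0505) or OL replicate 2 (-0.17, adjusted p = 0.0806). The Fgfr3 call was also lost with a pseudocount of 0.1 (-0.15, adjusted p = 0.0616), and without the 6 h libraries both calls were lost (Fgfr3 -0.0086, adjusted p = 0.948; Egfr -0.058, adjusted p = 0.589). The sign of Ntrk2 turned without OL replicate 1 (-0.050). The members' median slope was -0.16, against -0.20 over all transcripts.

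**Figure D3:**
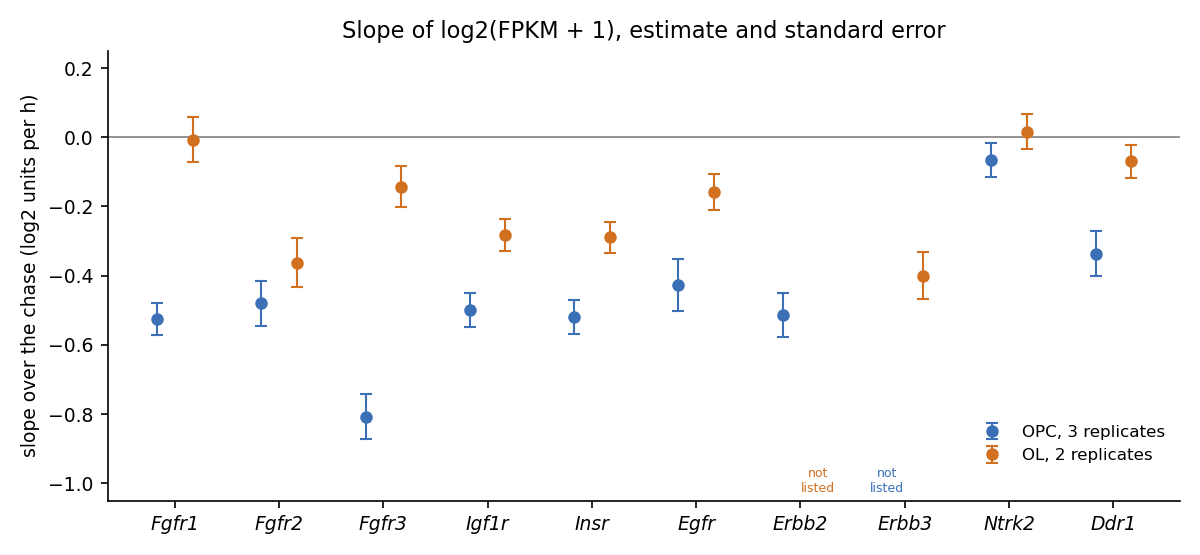
Slope of log2(FPKM + 1) over the chase for each receptor, in log2 units per h, with the estimate as a point and its standard error as a bar (15 OPC libraries, 10 OL libraries). Fgfr3 goes from -0.81 in OPCs to -0.14 in OLs and Fgfr1 from -0.53 to -0.01, while Ntrk2 lies near 0 in both.

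The difference in slope between the cell types was tested as an interaction in limma, and 5 of the 8 shared members fell more slowly in OLs. Fgfr3 differed by 0.66 ± 0.09 (adjusted p = 0.000162) and Fgfr1 by 0.52 ± 0.08 (adjusted p = 0.000194). By replicate, the slopes of Fgfr3 were -0.73, -0.88 and -0.82 in OPCs and -0.11 and -0.17 in OLs. Those of Fgfr1 were -0.51, -0.59 and -0.48 in OPCs and -0.0045 and -0.0085 in OLs. Smaller differences were those of Ddr1 (0.27 ± 0.09, adjusted p = 0.0256), Insr (0.23 ± 0.07, adjusted p = 0.0123) and Igf1r (0.22 ± 0.07, adjusted p = 0.0211). Of all 8177 shared transcripts 27.9% fell more slowly in OLs and 0.171% fell faster, and the median difference was 0.25 over the members and 0.14 over all transcripts. Egfr (0.27 ± 0.10, adjusted p = 0.0508), Fgfr2 (0.12 ± 0.10, adjusted p = 0.407) and Ntrk2 (0.08 ± 0.07, adjusted p = 0.409) did not pass. With a pseudocount of 0.1 the Fgfr2 difference was 0.66 and passed (adjusted p = 0.0120), above that of Fgfr1 (0.56) and below that of Fgfr3 (0.76).

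These slopes rest on the spike-in scale, and the split of calls turned with it. When each library was instead scaled to the median of its replicate's 0 h library, which removes the fall that all transcripts share, 2395 transcripts differed between cell types, 810 falling more slowly and 1585 faster in OLs, where the spike-in scale gave 2279 and 14. Fgfr3 (0.51, adjusted p = 0.000368) and Fgfr1 (0.31, adjusted p = 0.00265) passed on either scale. Ddr1 (0.04, adjusted p = 0.713), Igf1r (0.01, adjusted p = 0.906) and Insr (0.12, adjusted p = 0.196) passed on the spike-in scale alone, and Ntrk2 turned to -0.13 (adjusted p = 0.156). Within the cell types, that scale left Fgfr3, Insr, Erbb2 and Fgfr2 falling in OPCs and turned Ntrk2 to a rise (0.37, adjusted p = 7.03e-06), while in OLs Fgfr1 (0.23, adjusted p = 0.00667), Ddr1 (0.17, adjusted p = 0.00383) and Ntrk2 (0.25, adjusted p = 0.000675) rose against the median. The OL falls of Fgfr2 (-0.15, adjusted p = 0.132) and Igf1r (-0.074, adjusted p = 0.167), and the OPC falls of Fgfr1 (-0.089, adjusted p = 0.0935) and Igf1r (-0.094, adjusted p = 0.0891), were no longer called, and the slopes of Egfr in both cell types, Ddr1 in OPCs and Fgfr3 in OLs turned above 0 without passing. The slope difference of Fgfr2 was 0.32 on that scale (adjusted p = 0.0587). Without the 6 h libraries Fgfr3 (0.81), Fgfr1 (0.44) and Insr (0.31) passed in the slope difference, and Igf1r (0.26, adjusted p = 0.107) and Ddr1 (0.16, adjusted p = 0.296) did not. The calls of Ddr1, Igf1r and Insr were also lost without OPC replicate 2 (0.20, 0.17 and 0.18, with adjusted p = 0.0893, 0.0940 and 0.0834), without OL replicate 1 (0.22, 0.20 and 0.20, with adjusted p = 0.234, 0.160 and 0.148) and without OL replicate 2 (0.32, 0.24 and 0.26, with adjusted p = 0.0864, 0.0966 and 0.0621). Egfr passed without OPC replicate 1 (0.29, adjusted p = 0.0299) or OPC replicate 3 (0.33, adjusted p = 0.0260), and among transcripts with a mean 0 h level of at least 5 FPKM (0.27, adjusted p = 0.0494).

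A measure with less dependence on the shared scale is the percent left at 6 h divided by the median of the same library. For Fgfr1 this ratio was 0.69, 0.65 and 0.73 in OPCs and 2.73 and 2.31 in OLs, so it was below the median transcript in OPCs and above it in OLs at this time. At 1 h and 2 h it had been at or above the median in all OPC replicates, with ratios of 1.00 to 1.36. For Fgfr3 it was 0.26, 0.22 and 0.15 in OPCs and 1.57 and 1.29 in OLs. Ddr1 stood at 1.43, 0.93 and 1.43 in OPCs and at 2.38 and 1.53 in OLs, and Fgfr2 at 0 in all OPCs and at 0.81 and 0.34 in OLs. In these 4 members both OLs lay above all OPCs, as in 16.8% of shared transcripts. Fgfr2 is counted here through OPC values of 0 that follow a low start. Ntrk2 went the other way, with 5.27, 4.71 and 4.31 in OPCs and 3.91 and 2.15 in OLs, as did 29.4% of shared transcripts. Igf1r (0.62 to 0.93 in OPCs, 0.84 and 0.62 in OLs), Insr (0.28 to 0.92 and 0.88 and 0.54) and Egfr (1.14 to 1.78 and 1.27 and 1.22) overlapped.

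**Figure D4:**
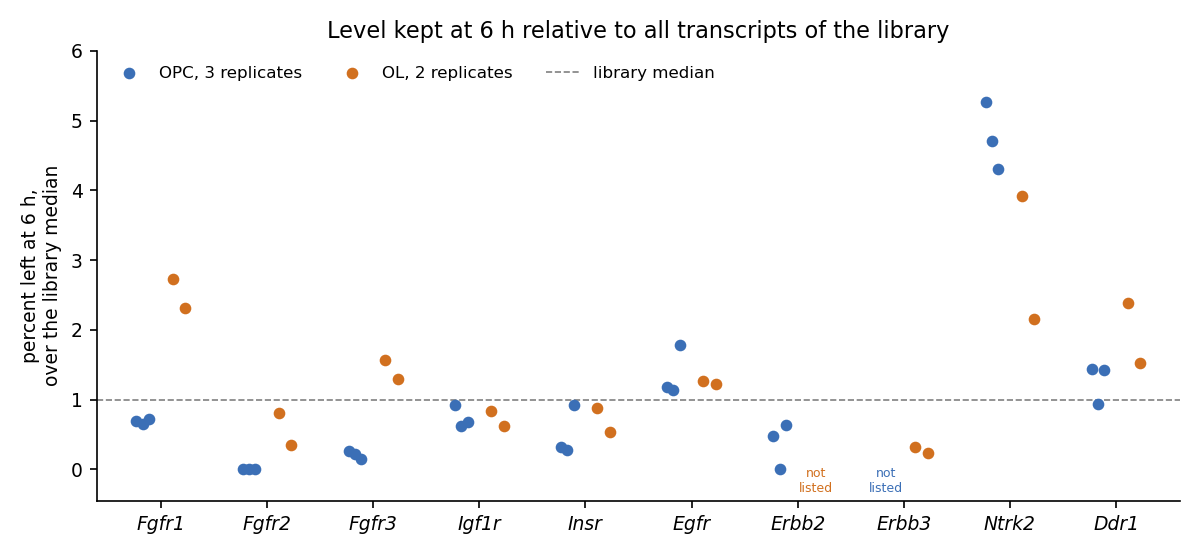
Percent of the 0 h level left at 6 h, divided by the median over all transcripts of the same library (vertical axis, no unit), with 1 point per replicate and a dashed line at the library median. Fgfr1 and Fgfr3 lie below the line in all 3 OPC replicates and above it in both OL replicates, and Ntrk2 lies above it in all 5.

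The deposited half-lives, fitted by the authors with a ceiling of 6 h, likewise set Fgfr1 and Fgfr3 apart. Fgfr1 had half-lives of 2.43, 2.43 and 2.50 h in OPCs and stood at the ceiling of 6 h in both OLs. Fgfr3 had 1.41, 1.96 and 1.96 h in OPCs and stood at the ceiling in both OLs. The ceiling itself was common. It held 39.7% and 36.1% of all half-lives in OL replicates 1 and 2, and 24.3%, 25.0% and 31.1% in OPC replicates 1, 2 and 3. Both were longer in OLs, by 1.29 ± 0.02 log2 units for Fgfr1 (adjusted p = 0.00149) and by 1.78 ± 0.19 for Fgfr3 (adjusted p = 0.0459, limma on log2 hours), and they were the 2 members called of 8, where 3.54% of 8112 transcripts passed, 3.39% longer and 0.148% shorter in OLs. Values at the ceiling stand for 6 h or more and show no spread between replicates, so the OLs added none to these errors, and 2 of the 3 OPC values of Fgfr3 are 1.96 h, a value that recurs in the fit. The Fgfr3 call was lost without OPC replicate 2 (1.86, adjusted p = 0.112), OPC replicate 3 (1.86, adjusted p = 0.0994), OL replicate 1 (1.78, adjusted p = 0.164) or OL replicate 2 (1.78, adjusted p = 0.162). With each replicate centred on its median half-life, which lowered the median difference of all transcripts from 0.37 to -0.53, neither passed (Fgfr1 0.39, adjusted p = 0.351; Fgfr3 0.87, adjusted p = 0.0696). Neither passed when half-lives were refitted without 6 h (0.49, adjusted p = 0.808, and 1.40, adjusted p = 0.537), and Fgfr1 did not pass when rescaled to the mean decay curve (0.93, adjusted p = 0.199). With a replicate block, which treats equal replicate numbers as pairs, neither passed (adjusted p = 0.155 and 0.216, limma), and 0 transcripts were called.

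**Figure D5:**
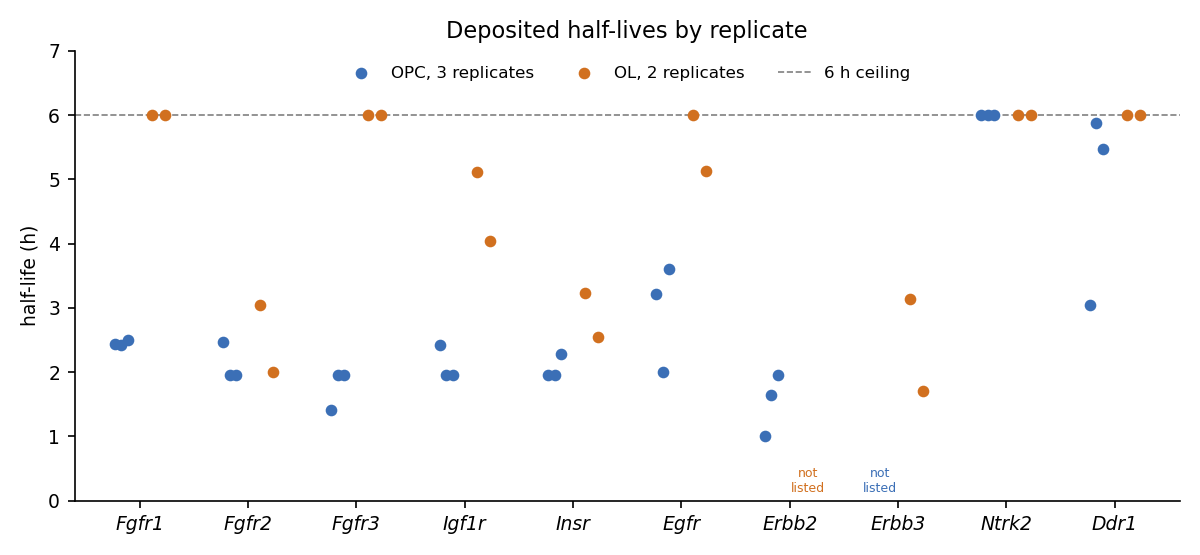
Deposited half-life of each receptor in hours, with 1 point per replicate and a dashed line at the 6 h ceiling. Fgfr1 and Fgfr3 lie at or under 2.50 h in OPCs and at the ceiling in both OLs, while Ntrk2 is at the ceiling in all 5 replicates.

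The remaining members did not pass in half-life. Igf1r had 2.43, 1.96 and 1.96 h in OPCs and 5.11 and 4.03 h in OLs (1.11 ± 0.17 log2 units, adjusted p = 0.0704, limma), Egfr 3.21, 2.00 and 3.61 h against 6 and 5.13 h, and Insr 1.96, 1.96 and 2.29 h against 3.23 and 2.55 h. Ddr1 had 3.04, 5.88 and 5.48 h in OPCs and stood at the ceiling in both OLs, and Ntrk2 stood at the ceiling in all 5 replicates. Fgfr2 overlapped, with 2.47, 1.96 and 1.96 h against 3.05 and 2.00 h. Erbb2 had 1.01, 1.64 and 1.96 h in OPCs, and Erbb3 3.14 and 1.71 h in OLs. In 6 of the 8 shared members both OL half-lives exceeded all OPC half-lives, as in 35.9% of all transcripts, and in none were both below, as in 2.01%. The median difference was 0.72 log2 units over the members and 0.37 over all.

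A single number recurs among these half-lives. In the authors' least absolute deviations fit, a curve that passes below the points at 1 and 2 h and above those at 4 and 6 h has its best half-life at 1.96 h as long as the points lie so, and 100% of the transcripts with this value had such points. This value, to within 0.0001 h, was held by 25.6% of transcripts in OPC replicate 2, 7.43% in OPC replicate 3, 2.14% in OPC replicate 1 and 0.474% and 1.38% in the OL replicates. Of the members' OPC values 8 were of this kind, from Fgfr2, Fgfr3, Igf1r, Insr and Erbb2. Differences among members at 1.96 h cannot be read from half-lives.

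For Fgfr3 and Ddr1, the members named for this (with Erbb3), the transcripts with the most similar chase were sought among shared transcripts with a mean 0 h level within 2-fold, by the root-mean-square difference in log2 level relative to 0 h over the 20 chase libraries. Closest to Fgfr3 were Lrig1 (0.36), Usp19 (0.41) and Slc1a4 (0.45), where the median of 2416 candidates was 1.46. Lrig1 is known as a membrane protein that restrains ErbB receptors. Closest to Ddr1 were Ppp6r1 (0.21), Ehmt2 (0.21) and Vps51 (0.22), where the median of 2444 candidates was 0.88. Erbb3 was not in both tables and was not compared.

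Other genes of the pathway were read from lists. Of 34 other receptor tyrosine kinases 12 were in both tables, and at 0 h 3 were higher and 1 lower in OLs in limma, with a median difference of 0.22 over the 12, where 13.8% of all shared transcripts were higher and 15.8% lower, with a median of -0.01. Aatk rose from 6.09 to 15 FPKM in OPCs to 106 and 71.6 FPKM in OLs (3.06 log2 units, adjusted p = 0.000771), Erbb4, a neuregulin receptor, from 1.50 to 6.15 FPKM to 24.8 and 33.1 FPKM (2.68, adjusted p = 0.00314), and Pdgfra, the PDGF receptor of OPCs, by 1.70 log2 units (adjusted p = 0.0120). Ptk7, a kinase-dead receptor of planar cell polarity, fell from 25.1 to 29.5 FPKM to 9.36 and 17.2 FPKM (-1.01, adjusted p = 0.0289). The Pdgfra call was lost without OL replicate 1 (1.40, adjusted p = 0.114), and that of Ptk7 without OL replicate 1 (-0.61, adjusted p = 0.196) or OPC replicate 3 (-0.94, adjusted p = 0.102). In half-life 1 was longer and 1 shorter in OLs, where 3.39% and 0.148% of all transcripts were. Fgfrl1, an FGF receptor without a kinase domain, went from 1.49, 1.96 and 1.96 h to 6 and 5.04 h (adjusted p = 0.0477), a call that was lost without any single replicate (adjusted p = 0.0735 to 0.158). Erbb4 went from the ceiling in all OPCs to 3.96 and 3.54 h (adjusted p = 0.0329), and this call was lost without any single OPC replicate (adjusted p = 0.0942 to 0.108).

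Of 52 ligands and ligand-binding proteins 17 were in both tables, 2 higher and 7 lower in OLs, beside 13.8% and 15.8% of all shared transcripts, with a median of -0.43 beside -0.01 over all. Tgfa, a ligand of Egfr, rose from 5.47 to 10.7 FPKM to 45.7 and 32.4 FPKM (2.27, adjusted p = 0.00159, limma). Hbegf, which also binds Egfr, was at 6.34 to 10.2 FPKM and at 11.9 and 35.4 FPKM (1.33, adjusted p = 0.0475), a call lost without OL replicate 2 (0.58, adjusted p = 0.289), OPC replicate 2 (adjusted p = 0.0862) or OPC replicate 3 (adjusted p = 0.127), or with a pseudocount of 0.1 (1.42, adjusted p = 0.0587). The IGF-binding proteins Igfbp4, Igfbp2 and Igfbp3, which hold IGFs away from or near their receptor, fell by 3.68, 3.18 and 2.27 log2 units. Igfbp2 alone went from 599 to 1156 FPKM in OPCs to 73.3 and 110 FPKM in OLs (adjusted p = 0.000423). None of the 17 passed in half-life in limma.

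Of 45 adaptors and proximal effectors 32 were shared, 9 higher and 3 lower in OLs at 0 h (13.8% and 15.8% of all), with a median of 0.17 (-0.01 over all). Pik3r3, a regulatory subunit of PI3K, rose from 18.8 to 23.2 FPKM to 207 and 150 FPKM (3.01, adjusted p = 0.000207, limma), and Shc3, an adaptor, fell by 2.13 log2 units from 39.4 to 48.9 FPKM to 5.15 and 15.4 FPKM (adjusted p = 0.00590). Grb10 (1.20), Yes1 (1.16), Vav3 (-2.13) and Nck2 (-0.83) passed as well, and each lost its call without OL replicate 1 (adjusted p = 0.213, 0.183, 0.115 and 0.155), that of Grb10 also with a pseudocount of 0.1 (adjusted p = 0.0512). Other replicates decided these calls as well: Grb10 was lost without OL replicate 2, OPC replicate 2 or OPC replicate 3 (adjusted p = 0.125, 0.0728 and 0.117), Yes1 without OL replicate 2 or OPC replicate 3 (adjusted p = 0.128 and 0.102) and Nck2 without OL replicate 2, OPC replicate 1 or OPC replicate 2 (adjusted p = 0.158, 0.0557 and 0.0728). In half-life Stat3, a transcription factor that such receptors can activate, was the 1 gene called of 32, where 3.39% of all transcripts were longer in OLs. Stat3 had 1.43, 1.96 and 2.06 h in OPCs and the ceiling in both OLs (adjusted p = 0.0486, limma). It lost its call without OPC replicate 2 or 3 (adjusted p = 0.122 and 0.0947). Without either OL replicate its difference was 1.74, both OLs being at the ceiling.

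Of 37 genes that restrain receptors or carry them into the cell 28 were shared, 6 higher and 2 lower in OLs (13.8% and 15.8% of all), with a median of 0.47 (-0.01 over all). Eps15, an endocytic adaptor first known as a substrate of the EGF receptor, rose from 13.0 to 17.7 FPKM to 164 and 125 FPKM (3.11, adjusted p = 0.000200, limma). Ptprj, a receptor-type phosphatase, rose by 1.73 log2 units, as did Stam, an endosomal sorting protein, whose call was lost without OL replicate 1 (1.71, adjusted p = 0.0598). Ptprf (-1.10) and Spred3 (-0.78) fell, and both calls were lost without OL replicate 1 (adjusted p = 0.215 and 0.165) or OPC replicate 3 (adjusted p = 0.106 and 0.174). Ptprf was also lost without OPC replicate 2 (adjusted p = 0.0547), and Spred3 without OL replicate 2 (adjusted p = 0.193), without OPC replicate 1 (adjusted p = 0.0738) or with a variance trend (adjusted p = 0.0746). Lrig1 was the 1 gene of the 28 with a longer half-life in OLs, where 3.39% of all transcripts were longer. Lrig1 had 1.78, 1.96 and 1.96 h in OPCs and the ceiling in both OLs (1.66 ± 0.05 log2 units, adjusted p = 0.00738, limma). Its small error rests on values with little free spread, both OLs being at the ceiling and 2 of 3 OPC values at the recurring 1.96 h. The call was lost when half-lives were centred on the replicate median (0.76, adjusted p = 0.0871) or refitted without 6 h (1.47, adjusted p = 0.155), and the half-life calls of Fgfrl1, Erbb4 and Stat3 were likewise lost when centred (adjusted p = 0.116, 0.0509 and 0.0760). Refitted without 6 h, Fgfrl1 and Stat3 lost their calls (adjusted p = 0.375 and 0.733, limma) and Erbb4 kept its call (adjusted p = 0.0137). When rescaled to the mean decay curve, Fgfrl1 lost its call (adjusted p = 0.158), while Erbb4, Stat3 and Lrig1 kept theirs.

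Over the chase in OPCs, 11 of 12 other receptors, 10 of 17 ligands, 31 of 32 adaptors and 25 of 28 restraining genes fell, where 81.4% of all transcripts fell, and 2 ligands and 1 restraining gene rose. In OLs 11 of 14, 8 of 22, 30 of 37 and 24 of 33 fell, where 64.7% of all transcripts fell, and 1 ligand rose. In the slope difference 4 of 12 receptors, 4 of 17 ligands, 6 of 32 adaptors and 5 of 28 restraining genes fell more slowly in OLs and 0 fell faster, where 27.9% of all shared transcripts fell more slowly. Median differences were 0.16, 0.14, 0.17 and 0.16 log2 units per h, against 0.14 over all.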

How the data were processed

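Labelled RNA was measured in 15 OPC and 10 OL libraries, and 1 OPC control without biotin was not analysed here, so background on the beads was not subtracted. The authors aligned reads to GRCm38 (mm10) with HISAT2 2.1.0, tabulated FPKM with StringTie 1.3.5 over canonical coding transcripts of GENCODE vM9 (tools per the submitters' processing notes), scaled FPKM to the relative number of spike-in reads, and deposited FPKM and half-lives in hours. From their decimals, which is an inference, 0 h values are taken here to be unscaled and later ones to be relative to their own replicate. An error in a library's factor moves all its transcripts. Half-lives of 98.2% to 99.9% of transcripts were refitted to within 0.01 h. Read depth is unknown, so no counting error is given, and replicates shared at most 0.0117% of their values.

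Levels were tested as log2(FPKM + 1), which understates changes of low transcripts, and half-lives, capped at 6 h, as log2 hours. Tests used limma 3.58.1 in R 4.3.3 over all transcripts, two-sided, with a Benjamini-Hochberg threshold of 0.05. The fits were tested on simulated data with independent normal errors. Those data had no 6 h ceiling and no replicate structure, so the effect of either was not tested. Members were named in full. From each list up to 3 called genes per direction with the largest change were named, at 0 h and in half-life. Transcripts with a similar chase were sought for all 8 shared members and, by the same naming rule, are named for Fgfr3, Ddr1 and Erbb3 where listed in both tables. Members and lists were chosen with earlier results of these data known. 3′ UTRs and codons came from GENCODE M21 (GRCm38), matched by transcript identifier for 10104 of 10104. Alternatives are given at the end.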

Additional observations from a re-analysis of the deposited data

Results flagged for a closer look

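A difference between the cell types in the slope over the chase, tested as an interaction in limma, marked 5 receptors, in log2 units per h, OLs minus OPCs. Fgfr3 differed by 0.66 and Fgfr1 by 0.52, Ddr1 by 0.27, Insr by 0.23 and Igf1r by 0.22, all toward a slower fall in OLs. Of all shared transcripts 27.9% also fell more slowly in OLs, so a slower fall as such is common in these libraries. On the scale that removes the shared fall, Fgfr3 and Fgfr1 passed and the other 3 did not. Groups of 3 and 2 replicates are too small for a check for single outlying samples.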

How the results depend on the processing

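Where a value was given, directions of members held under pseudocount 0.1, a mean of at least 5 FPKM (which leaves out Fgfr2 in OPCs, so 7 members fell there), refitted half-lives and a moderated trend. The members called at 0 h went from 1 to 3 with libraries centred on their median (1 higher, 2 lower; Fgfr1 -0.83 and Egfr -1.07) and to 2 with the trend, and leaving out a replicate gave 1 to 3 members and 896 to 2605 transcripts, with Fgfr3 from -0.43 to 0.18. Members called in half-life went from 2 to 0 when centred on the replicate median, refitted without 6 h or kept to transcripts below the ceiling in at least 1 replicate of each cell type (which leaves out Fgfr1 and Fgfr3), and to 1 when rescaled to the mean decay curve. Transcripts called went from 287 to 1 (centred) and 33 (without 6 h), the rescaled fit called 281 (87 longer, 194 shorter), and leaving out a replicate gave 167 to 236 transcripts and 1 to 2 members. Half-life differences turned to -0.68 for Fgfr2, -0.42 for Insr and -0.52 for Ddr1 when centred, where Ntrk2 went from 0 to -0.90 (adjusted p = 0.0509, limma), to -0.62 for Fgfr2 and -0.063 for Egfr without 6 h, and to -0.036 for Fgfr2 when rescaled, and Fgfr2 ranged from -0.078 to 0.53 as replicates were left out.

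Scaled to the 0 h median, OPC calls went from 8 to 5 (1 rising, 4 falling), with Egfr at 0.022, Ddr1 at 0.12 and Ntrk2 at 0.37, and over all transcripts 2689 rose and 2524 fell. In OLs 2448 rose and 1865 fell, with Fgfr1 at 0.23, Fgfr3 at 0.093, Egfr at 0.066 and Ddr1 at 0.17. The slope difference kept 2 members, with Ntrk2 at -0.13. Without 6 h, OL slopes were 0.044 for Fgfr1 and 0.027 for Ddr1, 3896 OL transcripts were called, and the slope difference called 1292 transcripts and 3 members. Leaving out a replicate gave 705 to 2447 transcripts and 2 to 6 members for the slope difference, and an OL slope of Ntrk2 from -0.050 to 0.083. Fgfr2's slope difference passed with pseudocount 0.1 (0.66). The causes were not tested.

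The study does not say which numbers of OPC and OL replicates correspond, so they were not taken as pairs. Deviations of the shared numbers correlated at 0.059 and 0.010. With 2 OL replicates their deviations mirror each other, so such correlations cannot decide the pairing. With a replicate block 0 transcripts and 0 members were called in half-life (Fgfr1 adjusted p = 0.155 and Fgfr3 adjusted p = 0.216, limma), 1932 transcripts and 1 member at 0 h, and 2655 transcripts for the slope difference, where Egfr passed (adjusted p = 0.0166, limma). At 0 h the block also ended the calls of the list genes Ptk7 (-0.94, adjusted p = 0.0534) and Spred3 (-0.68, adjusted p = 0.160, limma).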
